A study of Mus musculus with 16 samples.

Results

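A set of 15 genes had low read counts in wild-type (WT) embryoid bodies treated with retinoic acid, and each had higher counts in Taf4a-/- (KO) embryoid bodies at the last stage sampled. The set was chosen from the normalised read counts, as the genes below 20 in each of the 4 WT libraries of the EB5 and EB8 stages and above 100 in both KO EB8 libraries, and it took 15 of the 27807 genes measured. By themselves these cut-offs were met by 12336 genes on the WT side and by 11264 on the KO side. The opposite arrangement, above 100 in both WT EB8 libraries and below 20 in the 4 KO EB5 and EB8 libraries, held for 59 genes.

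RNA was sequenced from mouse embryonic stem (ES) cells and from embryoid bodies, floating aggregates in which ES cells differentiate, in a protocol that yields glutamatergic neurons with retinoic acid. Taf4a is a gene for 1 of the subunits of TFIID, which carries the TATA-binding protein to promoters, and the KO lines are homozygous for a null allele in which internal exons are deleted. The stages were ES cells grown with LIF on feeder fibroblasts, aggregates before retinoic acid (EB4), aggregates after its first day (EB5) and aggregates later in the treatment (EB8), and each of the 8 combinations of genotype and stage had 2 libraries. The lines came from blastocysts of crosses between heterozygous mice on a C57Bl6J background, 2 lines for each genotype, so that a replicate stands for a line at most and 2 lines stand for a genotype. The rule fixes the values at EB5 in WT and at EB8 in both genotypes, and these are given as a description without a test. ES, EB4 and KO EB5 libraries played no part in it. Tests on them still share 1 estimate of spread per gene over all 8 groups, those bounded by the rule included.

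ES cells and germ cells share a set of genes that most somatic cells keep silent. In ES cells that leave pluripotency, such genes are shut down by repressors such as the Mga-Max complex and by DNA methylation of their promoters. The X chromosome is rich in genes of the testis, and several retrotransposon-derived genes that now encode cellular proteins also lie there. The 15 genes held some of each kind. Fkbp6, whose product acts in meiotic chromosome pairing and in the piRNA pathway, Slc25a31, the ADP/ATP carrier of male germ cells, and Usp26, a deubiquitinase of the testis, are germline genes. Pnma5 and Ldoc1 descend from retrotransposon gag genes. Mep1b encodes the beta subunit of meprin, a metalloprotease of kidney and gut brush borders, Cd22 an inhibitory lectin receptor of B cells, and Smtnl1 a smoothelin-like protein of muscle.

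Of the 15 genes, 10 were annotated as protein-coding, 3 as pseudogenes and 2 as processed transcripts. The pseudogenes were Gm16088, Gm14300 and Gm11620, and the processed transcripts AI662270 and A730085A09Rik. The sequences upstream of 4 of the genes are shown, 5′ to 3′, because 3 of them (Fkbp6, Slc25a31 and Cd22) hold the CACGTG E-box bound by Mga-Max and the fourth, Pnma5, had the highest mean read count of the set in KO EB8. Each is the 250 bases before the annotated start in mouse build NCBI37 (GENCODE starts), and capitals mark the motifs searched for.
Fkbp6 (chr5:135825896-135826145, minus strand): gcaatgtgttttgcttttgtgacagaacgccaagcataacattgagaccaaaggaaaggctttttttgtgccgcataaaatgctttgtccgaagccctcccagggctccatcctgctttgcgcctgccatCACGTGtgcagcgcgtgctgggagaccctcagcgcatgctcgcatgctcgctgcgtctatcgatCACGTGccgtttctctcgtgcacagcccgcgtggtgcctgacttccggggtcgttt
Slc25a31 (chr3:40512527-40512776, plus strand): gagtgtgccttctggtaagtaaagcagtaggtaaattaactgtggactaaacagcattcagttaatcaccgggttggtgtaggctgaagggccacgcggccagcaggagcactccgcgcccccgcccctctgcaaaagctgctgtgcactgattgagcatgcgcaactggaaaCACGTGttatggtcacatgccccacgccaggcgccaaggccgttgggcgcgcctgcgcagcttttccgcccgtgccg
Cd22 (chr7:31665362-31665611, minus strand): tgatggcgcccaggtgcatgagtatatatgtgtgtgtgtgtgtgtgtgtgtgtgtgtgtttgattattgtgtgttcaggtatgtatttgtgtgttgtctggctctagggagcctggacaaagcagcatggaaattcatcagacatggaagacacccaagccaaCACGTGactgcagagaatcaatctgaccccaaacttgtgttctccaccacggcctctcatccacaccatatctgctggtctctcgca
Pnma5 (chrX:70282443-70282692, minus strand): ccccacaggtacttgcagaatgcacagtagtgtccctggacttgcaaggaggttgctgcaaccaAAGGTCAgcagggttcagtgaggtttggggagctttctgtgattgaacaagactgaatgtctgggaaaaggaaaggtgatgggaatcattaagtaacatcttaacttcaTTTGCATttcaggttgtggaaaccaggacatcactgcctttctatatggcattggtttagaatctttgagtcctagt
The Fkbp6 stretch held CACGTG at 2 places and the Slc25a31 and Cd22 stretches at 1 each, while the capitals in Pnma5 are AAGGTCA, the motif of Esrrb, and TTTGCAT, the reverse complement of the octamer core ATGCAAA bound by Oct4. Over windows of 300 bases, from 250 before the start to 50 after it and with both strands searched, CACGTG was found in 3 of the 15 genes, in 7.25% of all 27603 annotated genes and in 10.4% of those above 100 in both KO EB8 libraries. The octamer core was in 1 of 15 against 4.62% and 3.28% of these groups, AAGGTCA in 1 against 4.06% and 3.04%, and CATTGT (Sox) in 3 against 10.7% and 6.76%. GGGCGTG (Klf) was in 2 against 9.63% and 15.7%, TATAAA in 3 against 12.7% and 6.80%, and GCGGGAA (E2F) in 1 against 5.19% and 8.78%. A match is a run of letters and no measured binding. The median ratio of observed to chance-level CpG in these windows was 0.394 for the 15 genes, 0.492 for all genes and 0.768 for the 11264 genes above 100 in both KO EB8 libraries.

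The genes were scattered over the genome, with no 3 of them within 500 kb. X held 5, namely Pnma5, Usp26, Ldoc1, Gm1141 and 1700013H16Rik, which is 33.3% of the set. Of the 11264 genes above 100 in both KO EB8 libraries, 3.77% were on X. The nearest pair on X, Pnma5 and Gm1141, was 1093.12 kb apart. Gm14300 lies inside Cdh4 on the opposite strand, 298.578 kb from Taf4a, and A730085A09Rik inside Kank4 on the opposite strand, in both cases with no shared exon bases. The library kit did not mark strand.

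Library depth ran from 22442118 to 40711826 reads in genes, and ES libraries were all deeper than embryoid body libraries. A count of 3 reads, taken as the floor of detection, was worth 2.14 to 3.83 normalised read counts. Taf4a itself was not lower under the KO label, at 1590.9 to 1959.6 in WT and 1972.8 to 2400 in KO libraries, so that a count over the whole gene does not check the labels. The libraries differed in sex chromosomes. The X level of a library, the median log2 difference of its X genes from their mean over the 16 libraries, was 0.35 to 0.54 in WT ES replicate 2 and in KO replicate 2 at each stage, and -0.25 to -0.16 in the other 11 libraries. Eif2s3y, a Y gene, was at 2248.1 and 4 in the WT ES libraries, at 840.7 to 1322.8 in WT embryoid bodies and at 1.9 to 92.1 in KO libraries. In embryoid bodies, the genotype and the presence of Y expression cannot be told apart, and no WT embryoid body library had a high X level.

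Normalised read counts of the 4 genes tied to the germ line were as follows. Usp26 (X) had 570.7 and 3587.8 at ES, 51.5 and 40.7 at EB4, 16.9 and 4.4 at EB5 and then 15.8 and 12.7 at EB8 in WT. Its KO values were 56.5 and 1731.8 at ES, 200.9 and 1216.2 at EB4, 135.6 and 463.5 at EB5 and then 125.6 and 406.9 at EB8. Its highest value was thus in a WT ES library, and in KO it stayed at or above the level of the lower ES library. Fkbp6 (chromosome 5) had 20.9 and 287 at ES, 13.2 and 2.1 at EB4, 14.1 and 8.8 at EB5 and then 7.4 and 14.8 at EB8 in WT, and in KO 12.5 and 46.5 at ES, 10.5 and 49.8 at EB4, 26.5 and 50.4 at EB5 and then 264.8 and 122.5 at EB8. Both KO EB8 values lay above all other KO values, and WT ES replicate 2 was the highest library of all. Slc25a31 (chromosome 3) had 25.5 and 98.9 at ES, 17.5 and 8.6 at EB4, 12.2 and 13.2 at EB5 and then 19.95 and 7.4 at EB8 in WT. The KO lines gave 31.5 and 58.6 at ES, 3.5 and 48.5 at EB4, 42.7 and 72.7 at EB5 and then 129.8 and 126.8 at EB8, which are above every other library. 1700013H16Rik (X), which was on the germline list used here, had 2.7 and 456 at ES, 132.6 and 83.6 at EB4, 10.4 and 4.4 at EB5 and then 6.3 and 8.5 at EB8 in WT. In KO it had 1.7 and 5 at ES, 63.1 and 43.4 at EB4, 36 and 99.9 at EB5 and then 336.6 and 486.8 at EB8. It was the only gene of the set whose WT EB4 values lay above both KO EB4 values, so that its WT aggregates did express it before retinoic acid.

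The gag-derived genes differed in level, and the KO EB8 values of both lay within the range of their KO ES values. Pnma5 (X) had 38.2 and 2548.1 at ES, 8.8 and 6.4 at EB4, 15.1 and 17.6 at EB5 and then 3.2 and 13.8 at EB8 in WT. Its KO values were 431.7 and 2410.7 at ES, 461.5 and 2974.7 at EB4, 474 and 2078 at EB5 and then 731.2 and 1361.4 at EB8. Every KO library was above every WT embryoid body library, from ES onwards, and KO replicate 2 was above KO replicate 1 at each stage. Ldoc1 (X) had 77.4 and 133.1 at ES, 26.3 and 33.2 at EB4, 14.1 and 12.1 at EB5 and then 17.9 and 9.5 at EB8 in WT. The KO lines gave 24.1 and 152.2 at ES, 42.1 and 134 at EB4, 60.7 and 140.6 at EB5 and then 128.7 and 116.1 at EB8.

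**Figure D1:**
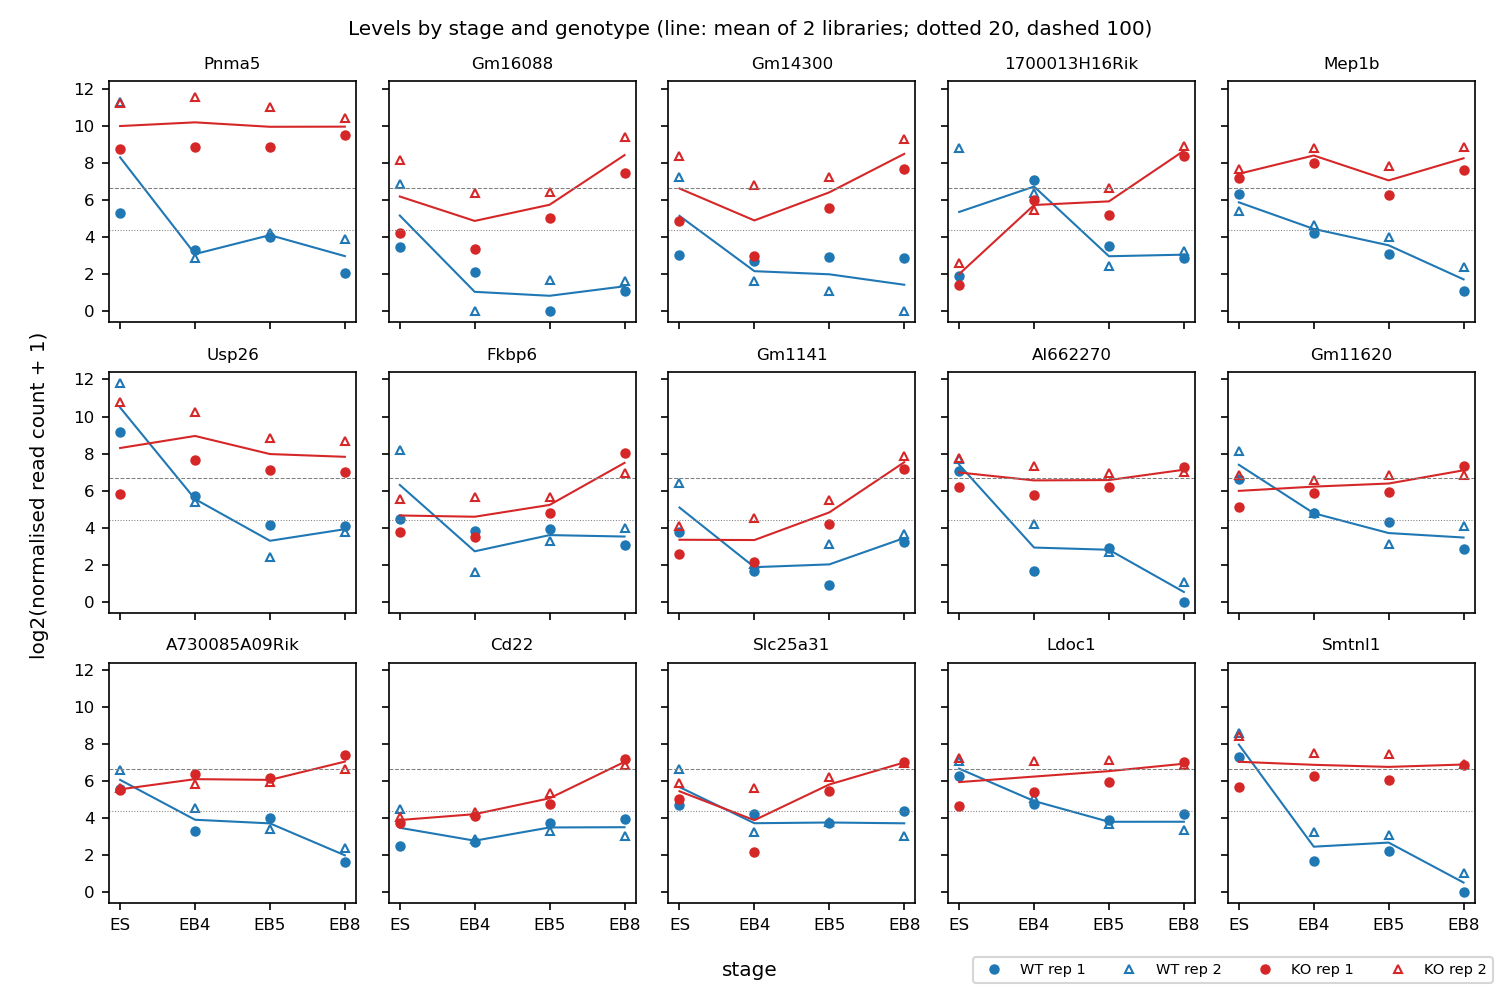
Log2(normalised read count + 1) of each of the 15 genes against stage, with WT in blue and KO in red, circles for replicate 1, triangles for replicate 2 and a line through the mean of the 2 libraries of each group. In WT, 13 of the 15 genes are lower in both EB4 libraries than in both ES libraries, and in KO all 15 lie above the dashed line at 100 in EB8.

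Mep1b (chromosome 18) had 79.2 and 42.3 at ES, 17.5 and 24.7 at EB4, 7.5 and 15.4 at EB5 and then 1.1 and 4.2 at EB8 in WT, with a lower mean at each later stage. In KO it had 142.8 and 203 at ES, 257 and 446.7 at EB4, 75.8 and 231.8 at EB5 and then 197.3 and 470.8 at EB8. KO values lay above WT values at every stage, ES included. Cd22 (chromosome 7) had 4.6 and 21.5 at ES, 5.5 and 6.4 at EB4, 12.2 and 8.8 at EB5 and then 14.7 and 7.4 at EB8 in WT, and in KO 12.5 and 15.7 at ES, 16.4 and 19 at EB4, 26.5 and 40.7 at EB5 and then 145.6 and 118.2 at EB8. Of the 3 genes with 1 of 4 ES libraries at or above 20 (Cd22, Gm1141 and 1700013H16Rik), Cd22 had the lowest value there. Smtnl1 (chromosome 2) had 160.2 and 393.1 at ES, 2.2 and 8.6 at EB4, 3.8 and 7.7 at EB5 and then 0 and 1.1 at EB8 in WT, at or under 3 reads in each library of the last. Its KO values were 49.8 and 345.2 at ES, 75.9 and 181.2 at EB4, 67.3 and 174.5 at EB5 and then 118.2 and 119.3 at EB8, a level within its ES range. Gm1141 (X), a predicted gene, had 12.7 and 83.7 at ES, 2.2 and 3.2 at EB4, 0.9 and 7.7 at EB5 and then 8.4 and 11.6 at EB8 in WT, and in KO 5 and 16.4 at ES, 3.5 and 21.7 at EB4, 17.1 and 43.6 at EB5 and then 145.6 and 233.3 at EB8. Both KO EB8 libraries were above every other library for this gene.

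Among the pseudogenes and processed transcripts, Gm16088 and Gm14300 had alike profiles. Gm16088 (chromosome 1) had 10 and 116.4 at ES, 3.3 and 0 at EB4, 0 and 2.2 at EB5 and then 1.1 and 2.1 at EB8 in WT, and in KO 17.4 and 290.9 at ES, 9.3 and 82.9 at EB4, 32.2 and 86.3 at EB5 and then 176.2 and 667.9 at EB8. Gm14300 (chromosome 2) had 7.3 and 150.7 at ES, 5.5 and 2.1 at EB4, 6.6 and 1.1 at EB5 and then 6.3 and 0 at EB8 in WT, and in KO 28.2 and 333.8 at ES, 7 and 111 at EB4, 47.4 and 150.3 at EB5 and then 202.6 and 637 at EB8. They are not independent measurements, because 97.0% of 501 aligned exon bases are identical and 75.2% of the 54-base words of Gm16088 and 81.1% of those of Gm14300 occur elsewhere in the genome. Reads of this length cannot always be assigned to such a locus, so that the values of these 2 genes are uncertain. Among the other 13, the share of repeated words was 25.3% for Pnma5, 14.9% for AI662270 and between 0 and 1.75% for the remaining 11.

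AI662270 (chromosome 11) had 132.9 and 212.1 at ES, 2.2 and 17.2 at EB4, 6.6 and 5.5 at EB5 and then 0 and 1.1 at EB8 in WT. The KO lines gave 72.2 and 217.3 at ES, 53.7 and 160.8 at EB4, 72.1 and 123.1 at EB5 and then 154 and 125.7 at EB8, so that KO EB8 was within the ES range. Gm11620 (chromosome 11) had 98.3 and 285.4 at ES, 26.3 and 26.8 at EB4, 18.8 and 7.7 at EB5 and then 6.3 and 15.9 at EB8 in WT, and in KO 34 and 114.4 at ES, 57.2 and 94.4 at EB4, 60.7 and 112.5 at EB5 and then 162.5 and 114 at EB8. A730085A09Rik (chromosome 4) had 46.4 and 94.9 at ES, 8.8 and 22.5 at EB4, 15.1 and 9.9 at EB5 and then 2.1 and 4.2 at EB8 in WT, and in KO 44.8 and 47.9 at ES, 82.9 and 56.2 at EB4, 72.1 and 61.1 at EB5 and then 173 and 101.2 at EB8. Both KO EB8 values of A730085A09Rik were above all ES values, and the lower of them stood just above the cut-off. Kank4, in which this transcript lies, was at 183.8 and 103.8 in the WT EB8 libraries and 400.9 and 632.8 in those of KO, and the part of Kank4 reads in the A730085A09Rik values was not tested.

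**Figure D2:**
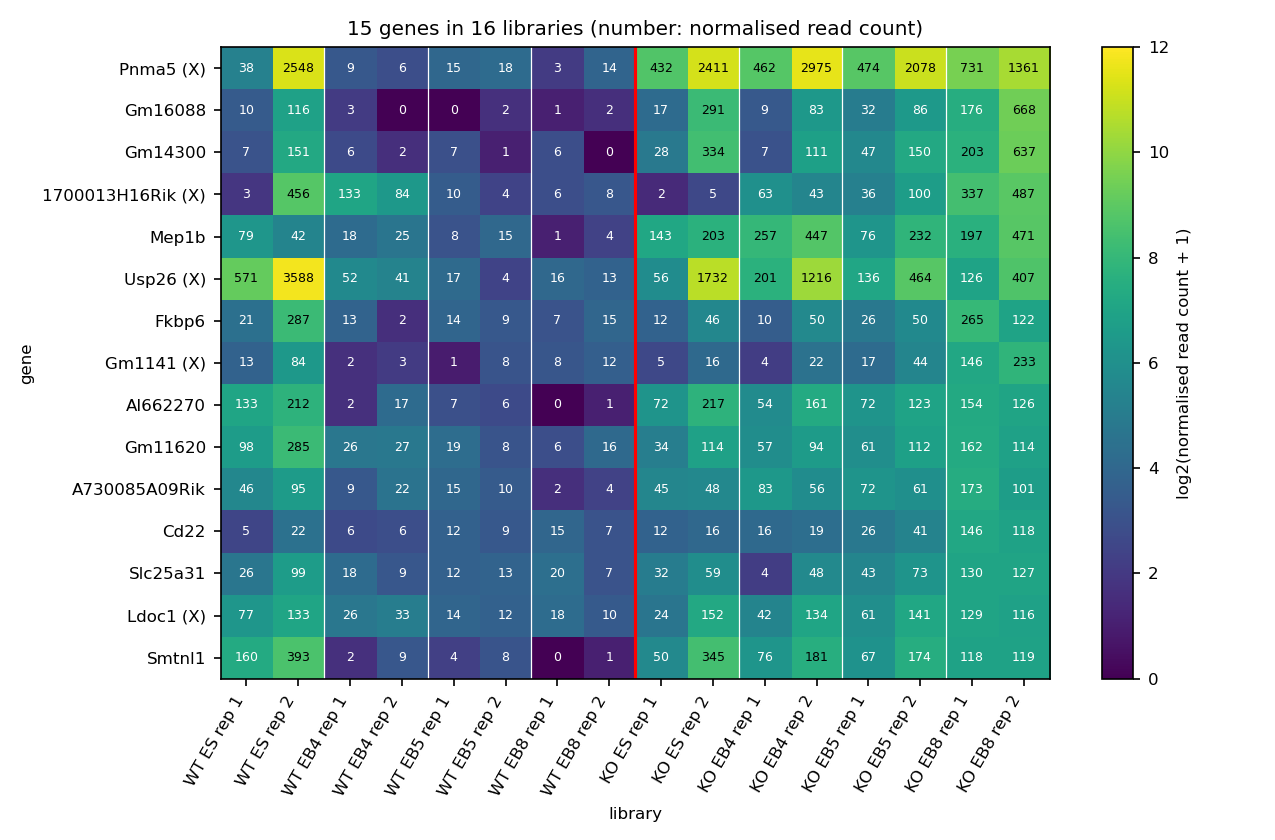
Log2(normalised read count + 1) as colour, with the normalised read count printed in each cell, for 15 genes (rows, those on X marked) in 16 libraries (columns, WT left of the red line and KO right of it). The WT EB5 and EB8 columns are dark throughout. WT ES replicate 2 and the KO replicate 2 columns at ES, EB4 and EB5 are brighter than replicate 1 for most genes. At KO EB8 replicate 2 is the higher in 8 of the 15.

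Per kb of exon, the mean KO EB8 level was highest for Gm16088 at 842 normalised read counts per kb, with Gm14300 at 444, 1700013H16Rik and Pnma5 both at 336, and Mep1b at 140. Cd22 was the lowest of the set at 30.6. The values nearest the cut-offs were Slc25a31 (highest WT value 19.95), Gm11620 (18.8) and Ldoc1 (17.9) inside on the WT side, against 23.3 for Rhox1, 24.2 for Nlrp4f and 24.2 for Rpgrip1 just outside it. On the KO side A730085A09Rik (101.2) was nearest inside, and Gm13078 (99.2), 2410076I21Rik (98.0) and BC080695 (97.1) were just outside.

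The question posed of the set was whether its genes are kept from ES cells or switched on anew. With the same cut-offs applied to the 4 ES libraries, 0 genes were above 100 in all of them (kept), 0 were below 20 in all of them (ectopic) and 15 were mixed. WT ES replicate 2 had 10 genes above 100 and 0 below 20, and KO ES replicate 2 had 9 above 100 and 3 below 20. WT ES replicate 1 had 3 above and 5 below, and KO ES replicate 1 had 2 above and 5 below. The mixed class therefore stood on a difference between replicates of a group. Without KO ES replicate 1, 3 genes would count as kept (AI662270, Smtnl1 and Usp26), without WT ES replicate 1 it would be 1 (Pnma5), and without WT ES replicate 2, 3 would count as ectopic (Cd22, Gm1141 and 1700013H16Rik).

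Another arrangement, chosen after the values were seen, sets KO EB8 against the ES level of the same gene. For 4 genes (Gm1141, A730085A09Rik, Cd22 and Slc25a31) both KO EB8 libraries were above all 4 ES libraries, which held for 27.7% of the 11264 genes above 100 in both KO EB8 libraries. For 6 genes they were above both KO ES libraries, which held for 36.2% of the 11264, the other 2 being 1700013H16Rik and Fkbp6. Neither share stands far from that of the other genes expressed in KO EB8. The remaining 9 overlapped their KO ES levels, with a log2 difference between the mean KO EB8 and KO ES levels from -1.74 (Usp26) to 1.45 (Gm16088). The difference was 6.57 for 1700013H16Rik, 4.02 for Gm1141, 3.14 for Cd22, 2.68 for Fkbp6, 1.54 for A730085A09Rik and 1.49 for Slc25a31. In these bulk samples, fewer cells that express a gene and less RNA per cell cannot be told apart.

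Before differentiation the genotypes were not shown to differ. In ES cells, limma called 0 of the 15 genes higher or lower in KO after adjustment, the background over 16124 tested genes being 0.0% in each direction. At an unadjusted p below 0.05, limma had 1 gene higher (Mep1b, log2 change 1.54 ± 0.67 SE) and 1 lower (1700013H16Rik, -3.37 ± 1.52), where 3.71% of tested genes were higher and 7.74% lower. edgeR called 0, and DESeq2 called 1 lower, 1700013H16Rik, and 1.31% of all genes lower. The lowest adjusted p by limma was 0.411. The change was positive in 5 genes and negative in 10, and the median was -0.51 against -0.003 over all tested genes. Mep1b was the 1 gene with both KO ES values above both WT ES values, an arrangement found in 19% of tested genes, and 0 genes had the reverse arrangement (20.7%).

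From ES cells to EB4, part of the set was lower in the WT EB4 than in the WT ES libraries. Limma called 6 of 15 genes lower in WT EB4 than in WT ES, where 7.57% of tested genes were lower, and 0 higher, where 8.98% were. These were Smtnl1 (log2 change -5.51 ± 0.91 SE, limma adjusted p = 0.00299), AI662270 (-4.47 ± 0.82, limma adjusted p = 0.00476), A730085A09Rik (-2.15 ± 0.56, limma adjusted p = 0.0222), Gm11620 (-2.61 ± 0.71, limma adjusted p = 0.0263), Usp26 (-4.94 ± 1.41, limma adjusted p = 0.0324) and Pnma5 (-5.21 ± 1.56, limma adjusted p = 0.0392). In 13 of 15 genes both EB4 values were below both ES values, an arrangement seen in 27.6% of tested genes in this direction, the exceptions being 1700013H16Rik, which overlapped and had a positive change of 1.36 ± 1.52, and Cd22. Fkbp6 (-3.57 ± 1.16, limma adjusted p = 0.0543) and Gm1141 (-3.22 ± 1.04, limma adjusted p = 0.0526) stayed just short of the threshold. The median of the 15 was -2.97, against -0.024 over all tested genes. The set had to be low in WT at EB5 and EB8, the stages after EB4, and the tested genes did not. Its shares beside theirs are therefore a description and no test of a difference between the set and other genes. WT ES replicate 2 had a high X level and Eif2s3y at 4, unlike all WT embryoid body libraries, and the chromosome 8 level of WT replicate 1, measured as for X, was -0.15 at ES and 0.40 to 0.41 at EB4, EB5 and EB8. A change with stage and a difference between lines cannot be told apart here. The count rests in part on single libraries, WT ES replicate 2 among them. With 1 library left out, the 6 changes stayed negative. Smtnl1 ran from -6.3 to -4.72, AI662270 from -5.73 to -3.22 and A730085A09Rik from -2.79 to -1.52. Gm11620 ran from -3.38 to -1.85, Usp26 from -6.26 to -3.61 and Pnma5 from -8.22 to -2.2. A fit of the 2 compared groups alone called 0 of the 15 genes, and 0 of all 16124 tested genes in either direction. ES and EB4 libraries also differ in depth, which cannot be told apart from stage.

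In KO, no gene of the set was called over the same interval. Limma called 0 of the 15 genes higher or lower in EB4 than in ES, where 2.51% of tested genes were higher and 0.992% lower. Unadjusted, 1 gene was higher (11.7% of tested genes) and 0 were lower (9.69%), and DESeq2 called that 1, 1700013H16Rik, while edgeR called 0. The median change was 0.20, with 8 genes positive and 7 negative, from -1.72 (Gm14300) to 3.74 (1700013H16Rik). For 4 genes, 1700013H16Rik, Mep1b, A730085A09Rik and Cd22, both KO EB4 values were above both KO ES values, against 28.1% of tested genes. From EB4 to EB5 in KO, the first day of retinoic acid, limma again called 0 of 15, with 1.82% of tested genes higher and 0.695% lower, and 0 at an unadjusted p below 0.05 (9.44% and 6.87% of tested genes), and neither edgeR nor DESeq2 called any. The median was 0.20, and Cd22 was the 1 gene with both EB5 values above both EB4 values (25.9% of tested genes), and Mep1b the 1 gene with both below (24.2%).

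The difference between genotypes in the ES to EB4 change was tested as an interaction. It was positive in all 15 genes, that is, less negative or more positive in KO, from 0.39 for Slc25a31 to 5.59 for Usp26, with a median of 2.80 (2.7 with groups at the floor of detection put at that floor) against -0.006 over all tested genes. Limma called 0 of the 15 after adjustment, and 0.0% of the 16124 tested genes in each direction. At an unadjusted p below 0.05, 8 were positive, against 4.37% of tested genes. The tested genes did not have to meet the rule, so this share too is a description. edgeR called 0 and DESeq2 2 (Smtnl1 and Pnma5), with 0.345% of all genes called in this direction by DESeq2. The lowest adjusted p by limma was 0.452, for Smtnl1 (5.35 ± 1.28 SE). The calls in WT and the lack of calls in KO were therefore not shown by limma to differ for any single gene.

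**Figure D3:**
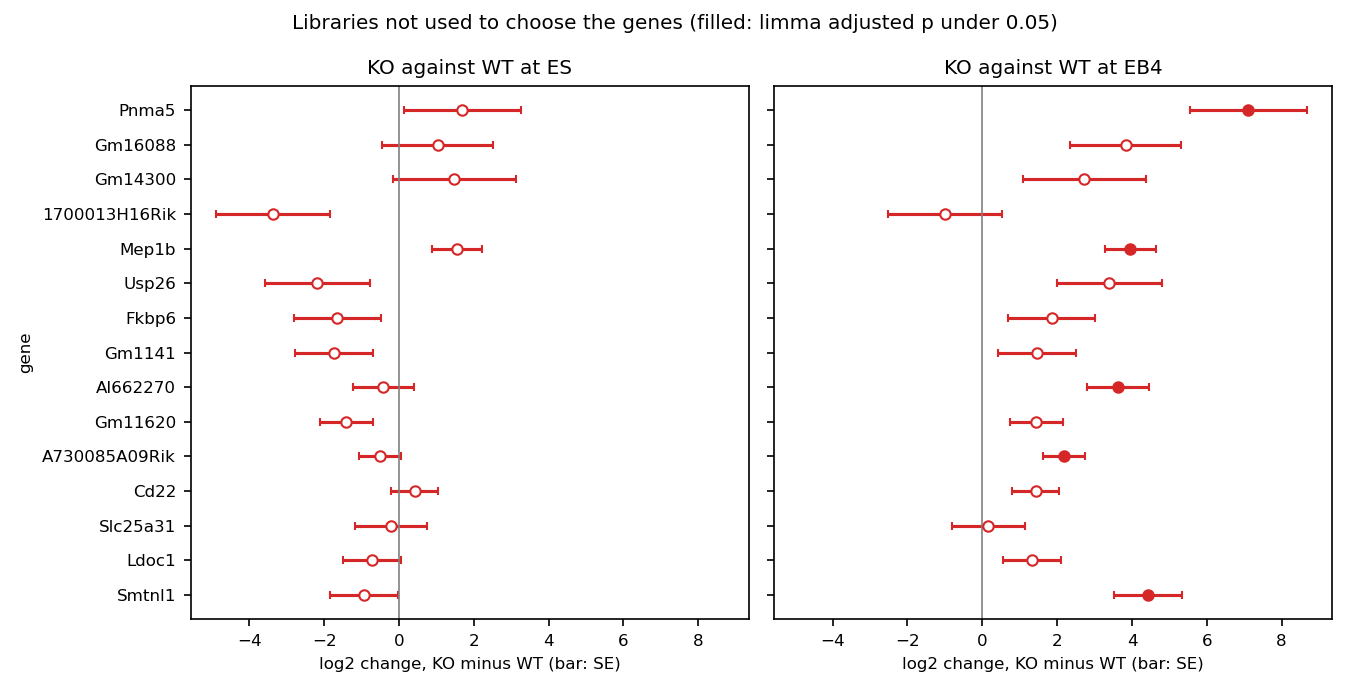
Log2 change of KO against WT for each of the 15 genes at ES (left) and EB4 (right), the libraries not used to choose the genes, with the SE as a bar and filled points for a limma adjusted p under 0.05. At ES 10 of the 15 changes are below 0 and none is filled, and at EB4 14 are above 0 and 5 are filled.

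At EB4, before retinoic acid, part of the set was already higher in KO. Limma called 5 of the 15 genes higher in KO and 0 lower, 33.3% of the set against 2.75% of tested genes higher and 3.37% lower. Pnma5 differed most (log2 change 7.11 ± 1.56 SE, limma adjusted p = 0.0241), followed by Smtnl1 (4.42 ± 0.91, limma adjusted p = 0.0186), Mep1b (3.96 ± 0.67, limma adjusted p = 0.0101), AI662270 (3.63 ± 0.82, limma adjusted p = 0.0276) and A730085A09Rik (2.19 ± 0.56, limma adjusted p = 0.0408). In 12 of the 15 both KO values were above both WT values, against 25.3% of tested genes. The tested genes did not have to be low in WT at EB5 and EB8 or high in KO EB8, as the set did. These shares are therefore a description and no test of a difference between the set and other genes. Of the genes tied to the germ line, Usp26 was higher in both KO libraries (3.4 ± 1.41, limma adjusted p = 0.172). Fkbp6 (1.86 ± 1.16) and Slc25a31 (0.16 ± 0.97) overlapped between genotypes, and 1700013H16Rik was lower in both KO libraries (-1.0 ± 1.52), an arrangement of 26.6% of tested genes. The change was positive in 14 genes, with a median of 2.19 against -0.004 over all tested genes. DESeq2 called 6, the same 5 and Usp26, and it called 920 of all 27807 genes higher. edgeR called 4, and 363 of the 16124 tested genes higher.

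That count depends on single libraries. Without KO EB4 replicate 2, limma called 0, and without WT EB4 replicate 1 it called 1, while a fit of the 2 EB4 groups alone called 0. Without KO EB4 replicate 2 the change of Pnma5 was 5.76, of Smtnl1 3.8, of Mep1b 3.56, of AI662270 2.85 and of A730085A09Rik 2.47, so that the direction held in the remaining KO library. KO EB4 replicate 2 is also the EB4 library with a high X level. On X, 1 of 5 genes was called, with a median change of 1.46, and elsewhere 4 of 10, with a median of 2.46. This comparison shares the WT EB4 libraries with the ES to EB4 comparison in WT.

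At EB8 the rule fixed both sides of the difference between genotypes, and at EB5 the WT side, so no calls are given there. The log2 difference between KO and WT at EB8 was smallest for Ldoc1, at 3.13. The number of genes above 100 in KO was 2 and 8 at EB5, after 3 and 7 at EB4, and 15 at EB8. In WT it was 1 and 0 at EB4. In 10 of the 15 genes both KO EB8 values were above both KO EB5 values, the other 5 being Pnma5, Mep1b, Usp26, Ldoc1 and Smtnl1. This held for 23.9% of the 11264 genes above 100 in both KO EB8 libraries. The rule used the KO EB8 values, and the 11264 genes did not have to be low in WT. The 2 shares are therefore a description and no test of a late rise.

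The replicates of KO differed in the same way for most of the set. Replicate 2 was above replicate 1 in 15 of 15 genes in KO ES (45.8% of tested genes), in 13 of 15 in KO EB4 (50.9%) and in 14 of 15 in KO EB5 (48.7%). The median log2 difference was 1.72, 1.65 and 1.30 at these stages. For the 5 X-linked genes it was 2.48, 2.33 and 1.45, and for the other 10 it was 1.65, 1.40 and 0.89, so that the difference was seen off X too. At EB8, where the rule asked for more than 100 in both KO libraries and so left out genes high in only 1 of them, replicate 2 was above replicate 1 in 8 of 15. In WT ES, replicate 2 was above replicate 1 in 14 of 15 genes (48.7% of tested genes), by a median of 2.02. The part of the X level in these differences was not tested.

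**Figure D4:**
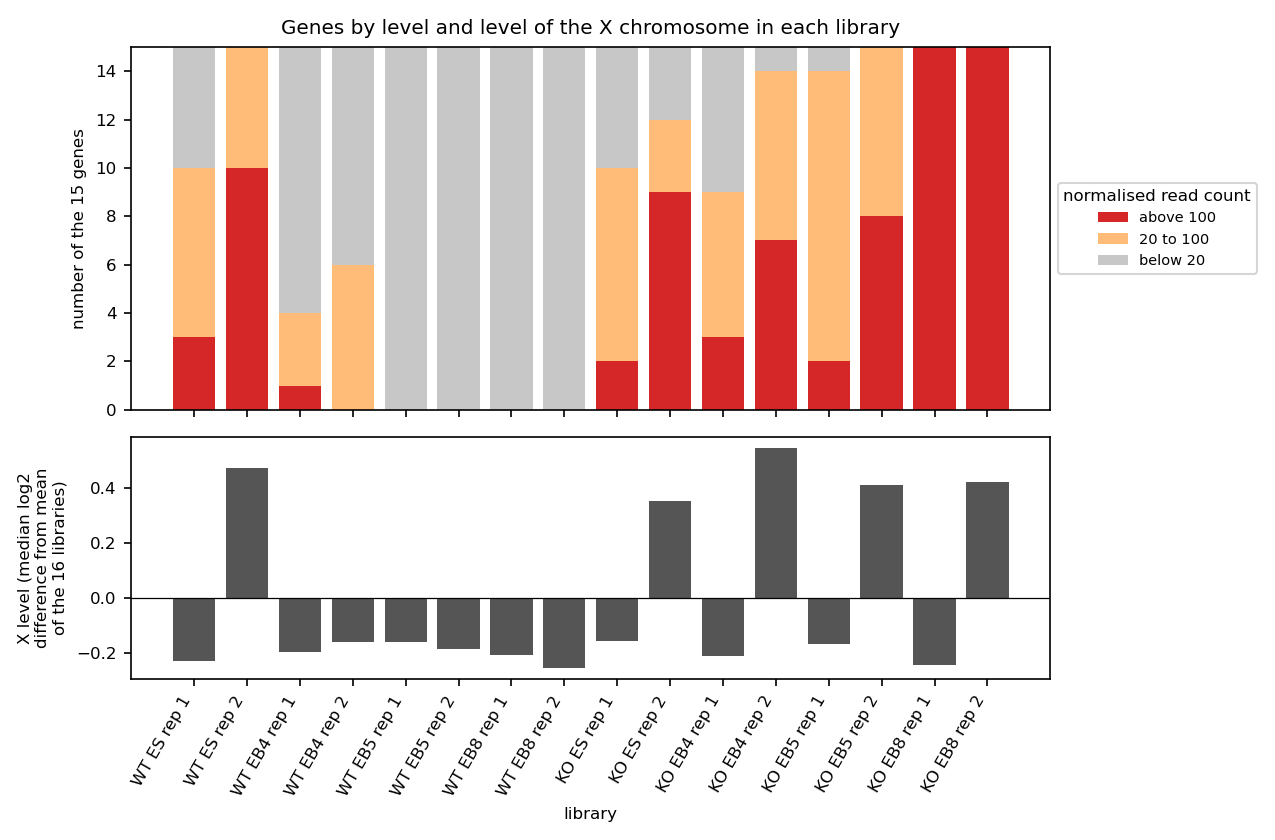
Top, number of the 15 genes above 100, from 20 to 100 and below 20 normalised read counts in each of the 16 libraries. Bottom, the X level of the same libraries, as the median log2 difference of X genes from their mean over all libraries. The 5 libraries with an X level of 0.35 or more are WT ES replicate 2 and KO replicate 2 at each stage, and of the ES, EB4 and EB5 libraries these hold most genes above 100.

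At EB8, limma called 10.4% of all tested genes higher in KO and 12.5% lower, against which lists of related genes and cell type markers are read. Of 59 tested genes on a germline list, 38 were higher and 2 lower in KO EB8 by limma (median 2.94, against -0.029 over all tested genes), and 3 of the 15 genes (Fkbp6, Slc25a31 and 1700013H16Rik) are on it. The rule fixed the direction of these 3, which are among the 38. Of the 59, 2 passed the filter on low values only through KO EB8. Among the other 57, the 3 included, the counts were 36 and 2. At EB4 5 of the 59 were higher and 1 lower, and from ES to EB4 in WT 23 were lower and 1 higher. On the Rhox list, X-linked homeobox genes of the reproductive tract, 3 of 5 tested genes were higher at EB8 and 0 lower. Of the 5, 1 passed the filter only through KO EB8, and among the other 4 the counts were 3 and 0. Of 45 tested pluripotency genes, 35 were higher and 0 lower in KO EB8, and the summed level of the list was 22773.9 and 23974.9 in WT EB8 against 101892.9 and 117747.4 in KO EB8. Of 18 neural genes 0 were higher and 16 lower, the sum being 60284 and 58196.6 in WT against 7093.2 and 6418.1 in KO. Of 23 tested 2-cell-stage genes, 11 were higher and 0 lower at EB8, but 13 of the 23 passed the filter on low values only through KO EB8, and among the other 10 the counts were 5 and 0. The 5 included Eif1a (log2 change 0.64) and Pramef8 (0.6), which were at 2307.1 or more and 597.1 or more in every library. The others were Dub1 (4.83), Tmem92 (4.44) and Sp110 (3.18). For fibroblast markers, which would mark feeder cells, limma called 0 of 15 tested genes in either direction at EB8 (1 at an unadjusted p below 0.05), edgeR called 0 and DESeq2 1. The sum ran from 16010.7 (WT EB5 replicate 2) to 41675 (KO EB4 replicate 2) over the 16 libraries. Fn1 alone made 11822.5 and 40354.2 of these 2 sums, so that the sum follows Fn1 and does not gauge feeder cells. On the other lists, the genes higher and lower in KO EB8 by limma were 6 and 1 of 20 trophoblast markers, 2 and 7 of 32 primitive and visceral endoderm markers, 3 and 2 of 21 primitive streak and mesoderm markers, 12 and 0 of 38 epithelial and keratin genes, and 3 and 0 of 15 blood and endothelial markers. They were 6 and 1 of 9 Nodal and Lefty signalling genes and 4 and 0 of 18 TFIID subunits and paralogues. Of the trophoblast markers 1, and of the epithelial and keratin genes 2, passed the filter only through KO EB8. Without them the counts stayed at 6 and 1, and at 12 and 0. The part of the cell make-up of the aggregates in the levels of the 15 genes was not tested.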

How the data were processed

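Per the labels and the submitters' processing notes, the authors sequenced poly-A RNA as single-end 54-base reads with a kit that does not mark strand, handled base calls with CASAVA 1.7 or 1.8, aligned to mouse build NCBI37 (mm9) with TopHat2 2.0.10, counted genes with HTSeq 0.5.4p3 and normalised with DESeq2 1.0.19. The annotation release and the strand setting are not given in the sources used here. The table as deposited holds, as a signal per gene, read counts divided by library size factors. Its values were whole multiples of 1 step per library (100%, within a tolerance of 0.01), so read counts were recovered. Floors of 3 reads cover counting error only.

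The 15 genes, the 13 gene lists and the contrasts were chosen with earlier results of these data known. Limma 3.58.1 was fitted to log2(normalised count + 1) with 8 group means over 16 libraries and a trended prior (residual df 8, prior df 4.27), for 16124 genes with a mean of at least 10. The KO EB8 values that the rule asks for are enough by themselves for a gene to pass this filter. P-values were adjusted by Benjamini-Hochberg over all tested genes with a threshold of 0.05, two-sided. On this scale the change of low genes is understated. P-values measure the spread between the 2 libraries of a group, pooled for each gene over all 8 groups and moderated by the prior. They do not rest on the compared groups alone, and WT EB5, WT EB8 and KO EB8, whose values the rule bounded, enter this spread. The alternatives were a pseudocount of 0.1 or 5, a minimum mean of 50 or none, scaling by upper quartile or quantiles, a fit of the compared groups alone, the replicate number as a block, a log2 change of at least 1, edgeR 4.0.16 and DESeq2 1.42.0 on the recovered reads (R 4.3.3), other cut-offs and leaving out single libraries.

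All 15 genes are named. Genes outside the set are named where they lie next to a cut-off, overlap a gene of the set or bear on a library. Positions, exons and starts are from the GENCODE annotation of build NCBI37, in which 27603 of 27807 identifiers were found, and sequences from that genome. Remaining steps used Python 3.11.15.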

Additional observations from a re-analysis of the deposited data

How the results depend on the processing

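With 2 libraries a group and genotype tied to sex chromosome content in the aggregates, the counts of called genes rest on few lines, and genes near the floor of 3 reads are poorly measured. Over 312 values of named genes under an alternative, 271 kept their direction and side of the threshold, 38 lost the call (16 with all libraries, 22 without a library), 1 gained it and 2 reversed. The 312 values take in all 15 genes in KO against WT at EB4, of which limma called 5. The uncalled genes could not lose a call, so the 271 overstate how often a call was kept. The reversals were both Slc25a31 in KO against WT at EB4, which ran from -1.56 to 1.89 when a library was left out (-1.56 without KO EB4 replicate 2, -0.31 without WT EB4 replicate 2). The cause was not tested for these or for the changes that follow.

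When only the groups compared were fitted, the genes higher in KO EB4 and those lower in WT EB4 than in ES were 0 each, where fewer residual degrees of freedom are available. These fits called 0 of all 16124 tested genes too, so that the loss is not particular to the set. DESeq2 called 1 gene lower in KO ES, 1 higher in EB4 than ES in KO and 2 in the interaction. Leaving out 1 library gave 0 to 1 genes lower in KO ES, 0 to 4 higher in KO EB4, 0 to 1 higher and 2 to 9 lower in EB4 than ES in WT, and 0 to 1 in the interaction. The interaction count of 1 arose without WT ES replicate 1, as did the gene lower in KO ES.

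The rule gave 1 gene with cut-offs of 10 and 200 and 155 with 40 and 50, of which 39 were kept and 36 ectopic by the same cut-offs. Quantile normalisation gave 12 genes, with 1 kept and 1 ectopic, and upper-quartile rescaling gave 20. Leaving out 1 library gave 15 to 73 genes, with 73 without KO EB8 replicate 1 and 23 without KO EB8 replicate 2. The kept count then ran from 0 to 4 and the ectopic count from 0 to 32.

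The replicate number was fitted as a block. Same-numbered libraries had correlations of deviations of 0.3347 at ES, -0.0575 at EB4, -0.0760 for EB4 and ES in WT, 0.3893 for EB4 and ES in KO and 0.4224 for EB5 and EB4 in KO. Within KO the numbers thus went together, as did the X level in replicate 2 and a chromosome 11 level of 0.18 to 0.28 in replicate 1, a hint from the data, while across genotypes at EB4 and within WT they did not, and the labels tie no number to a line. With the replicate block, 1 gene passed in the interaction (Smtnl1), 5 were higher in KO EB4 and 9 were lower in EB4 than ES in WT, and no other count of called genes changed.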

Other observations

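When the second KO EB8 library alone had to exceed 100, the rule took 58 further genes, and 14 of these are on the 2-cell-stage list, among them Zscan4b, Zscan4c, Zscan4e, Zscan4f and Zfp352, genes of the zygotic genome activation. Zscan4c had 39 and 466.6 normalised read counts in the KO EB8 libraries and 11.6 and 3.2 in WT EB8. When the first KO EB8 library alone had to exceed 100, it took 8 further genes, 0 of them on that list. The summed level of the 2-cell-stage list was 7294.7 and 15147.7 in KO EB8, and 4442 and 3213.4 in WT EB8. Eif1a alone made 4031.4 and 4320.6 of the KO EB8 sums and 3104.1 and 2307.1 of the WT EB8 sums. In WT ES the sums were 9232.7 and 9140.9, above that of KO EB8 replicate 1. The KO EB8 libraries thus differed in this list as well as in X level, and the difference between them was not tested.

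With cut-offs of 40 and 50 in place of 20 and 100, genes low in all 4 ES libraries appeared that the stricter rule left out, named here after their values were seen. The posterior Hox genes Hoxc9, Hoxd9 and Hoxa9 were among them. Hoxc9 was at 6.4 and 4.8 in ES cells of WT and 0.8 and 2.9 in those of KO. At EB8 it was at 32.6 and 26.5 in WT but 342.9 and 322.8 in KO. Hoxd9 at EB8 was at 20 and 26.5 in WT but 130.8 and 100.1 in KO. Duoxa2, a maturation factor of dual oxidase, was at 14.7 and 7.4 in WT but 176.2 and 92.7 in KO at that stage.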
